A study of Mus musculus with 16 samples.

Results

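The response of FLOX hepatocytes to palmitic acid was described across genes. FLOX cells are primary mouse hepatocytes of the genotype Alb-cre-, which lack the Cre recombinase driven by the albumin promoter and so keep Smpd3, the floxed gene that encodes neutral sphingomyelinase 2. A total of 4 FLOX samples received palmitic acid at 0.4 mM and 4 received vehicle, each for 24 h, and these 8 of the 16 samples of the series gave the comparison. The other 8 samples are HKO cells, which carry Alb-cre and lose Smpd3 in hepatocytes, under the same 2 treatments with 4 samples each. They entered the estimate of the spread, and their response was used only to ask where that of FLOX cells differed from it. The labels name neither the vehicle, nor a carrier for the fatty acid, nor whether the replicates of a group came from separate mice or cultures. Sample titles use the same numbers under both treatments, but do not say whether samples that share a number share a source. The p-values therefore reflect sample-to-sample spread, and that spread may be technical.

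Palmitic acid is a saturated fatty acid, and an excess of it is toxic to hepatocytes in culture, which is why it serves as a culture model of steatohepatitis. Fatty acids are ligands of the nuclear receptor PPARα, whose targets carry out fatty acid oxidation, ketone body synthesis and lipid storage in the liver. Saturated fatty acids also alter the membrane of the endoplasmic reticulum (ER), and the unfolded protein response, with its ATF6, IRE1 and PERK branches, then raises ER chaperones and stress transcription factors.

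Of 55416 genes, 11858 were tested, those that reached 1 TPM in 4 or more of the 16 samples, where TPM is the length-normalised share of a transcript in its sample. Palmitic acid changed 4084 of these (34.4%), of which 2726 were higher (23.0% of those tested) and 1358 lower (11.5%), at an adjusted p of 0.05 in limma on log2(TPM + 1) with Benjamini-Hochberg adjustment over all tested genes. "Rose" and "fell" below mean past this threshold, and log2 changes are palmitic acid minus vehicle with the standard error (SE). The change reached 1 on the log2 scale for 111 of the higher and 98 of the lower genes. The palmitic acid and vehicle samples did not overlap for 3442 genes, or 29.0% of those tested. Across all tested genes the log2 change had a median of 0.10. Of the called genes 66.7% were higher, which became 44.8% after median-ratio scaling and 50.4% after quantile normalization, so that small rises shared by many genes depend on the scaling.

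Samples of a FLOX group correlated at r = 0.980 to 0.985 across genes, and samples of different FLOX groups at r = 0.969 to 0.978. On the third principal component, with 7.53% of the variance, vehicle sample 1 scored 16.1 and the other vehicle samples -10.8 to 4.97. Palmitic acid sample 1 scored -19 there and the others of its group 4.71 to 14.1. It also lay apart from them on the first component (12 against 20.6 to 24.1) and the second (17.9 against 6.23 to 11.6). When both samples numbered 1 were left out, 5268 genes were called. Of these, 3670 were called in the same direction with all samples, which is 89.9% of the calls with all samples and 69.7% of those without these 2. Hepatocyte markers were abundant in every FLOX sample, with all 17 of the list tested and a sum of 66691 to 67669 TPM with vehicle and 53272 to 55190 TPM with palmitic acid. Markers of other liver cells were low. The macrophage list of 14 genes summed to 49.4 to 55.8 TPM with vehicle and 56.9 to 69.6 TPM with palmitic acid, of which Cd68, a lysosomal protein, made up most at 50.7 and 64.1 TPM, while Timd4 was at 0 and Adgre1, Clec4f and Ptprc never passed 0.14 TPM. The 13 stellate and fibroblast markers summed to 15.2 to 20.2 and 31.2 to 41.7 TPM, nearly all of it Ecm1, with Col1a1, Col3a1, Lrat and Pdgfrb at 0.05 TPM or less in every FLOX sample. The 11 endothelial markers summed to 8.21 to 15.2 and 8.64 to 10.5 TPM, the 12 lymphocyte and neutrophil markers to at most 0.27 TPM, and the 7 erythroid markers to 23.3 to 25.1 and 21.2 to 23.9 TPM, most of it Alas2. The 9 cholangiocyte markers summed to 197 to 208 and 208 to 252 TPM, mostly Spp1, which cultured hepatocytes can also express, with Cftr at 0. In bulk samples, fewer cells of a type and less RNA per cell cannot be told apart.

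Genes of lipid storage and of the switch from glucose to fat as fuel were among the 15 largest rises. Plin2, the main coat protein of hepatocyte lipid droplets, was at 508, 458, 465 and 475 TPM with vehicle and at 2296, 2706, 2797 and 2704 TPM with palmitic acid. The 2 groups were far apart, with palmitic acid sample 1 the lowest of its group, and the log2 change was 2.46 ± 0.06 (adjusted p = 2.27e-13, limma). Hilpda, an inhibitor of triglyceride lipolysis at the droplet, rose from 11.3 ± 1.05 to 57.1 ± 11.7 TPM (mean ± SD, n = 4, as for all TPM means here), a log2 change of 2.22. Cidec, which fuses lipid droplets, rose from 39.7 ± 2.7 to 146 ± 4.7 TPM. Of 21 tested members of the lipid droplet and lipolysis list, 9 rose and 7 fell, and the median log2 change was 0.15 against 0.10 for all genes. Abhd5, the co-activator of triglyceride lipase, was among the rises at a log2 change of 0.56, and Pnpla3, a droplet lipase of carbohydrate-fed liver, fell from 1.41 to 0.448 TPM. Summed over the list, droplet transcripts went from 1069 ± 24 to 3350 ± 257 TPM, a rise carried largely by Plin2.

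**Figure D1:**
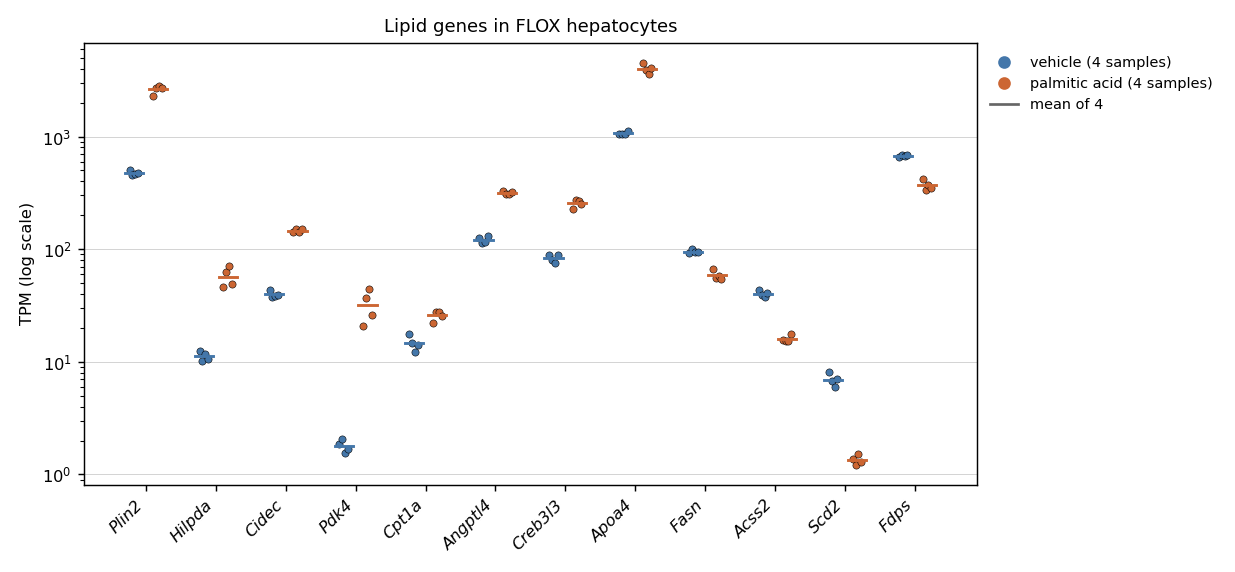
Transcript level (TPM, log axis) of 12 lipid genes in each FLOX sample; points are the 4 vehicle and 4 palmitic acid samples and lines their means. The groups do not overlap for any gene shown, with Plin2 going from a mean of 477 to 2626 TPM and Scd2 from 6.96 to 1.35 TPM.

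Pdk4, the kinase that switches off pyruvate dehydrogenase when fat is oxidised, was at 1.87, 2.08, 1.56 and 1.67 TPM with vehicle and at 20.8, 37.1, 44.4 and 25.9 TPM with palmitic acid. Its log2 change of 3.51 ± 0.17 was the largest of all tested genes after that of Gm25767 (adjusted p = 6.48e-10, limma), and the groups were far apart although the treated samples varied. It was the only rise among the 13 tested genes of pyruvate entry, although 3 rose without palmitic acid sample 1. The other changes there were 6 falls, led by Pdk2, a sister kinase, from 9.37 to 5.91 TPM.

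Mitochondrial oxidation genes rose more modestly. Of 20 tested, 12 rose and 4 fell, with a median log2 change of 0.19, and after median-ratio scaling 8 rose and 6 fell. Cpt1a, the gatekeeper that loads fatty acids on carnitine, was at 17.8, 14.8, 12.3 and 14.2 TPM with vehicle and at 22.1, 27.8, 27.8 and 25.6 TPM with palmitic acid. The highest vehicle and lowest treated values are both from samples numbered 1, and the groups did not overlap (log2 change 0.77 ± 0.11). Eci2, an enoyl-CoA isomerase, rose by 0.67 and Cpt2, the inner-membrane partner of Cpt1a, by 0.41 on the log2 scale, while Hadh, the short-chain dehydrogenase, fell by 0.42. Of 20 tested genes of peroxisomal and omega oxidation, 5 rose and 3 fell, shares near the 23.0% and 11.5% of all genes. Ehhadh, a peroxisomal bifunctional enzyme, went from 10.8 to 20.5 TPM. The direction of this list was not stable, with 3 higher and 8 lower after median-ratio scaling, 2 higher without palmitic acid sample 3, and 3 higher without palmitic acid sample 2, vehicle sample 2 or vehicle sample 3. Ppara itself was at 13.7 ± 2.5 and 13.9 ± 1.3 TPM and did not pass.

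Oxct1, the enzyme of ketone use, fell from 10.3 to 6.73 TPM. Angptl4, a secreted lipoprotein lipase inhibitor and a known PPAR target, rose from 122 ± 7.7 to 319 ± 9.8 TPM, and Creb3l3, an ER-bound transcription factor that works with PPARα in fasting, from 82.9 to 256 TPM.

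Uptake and activation genes moved both ways, with 7 of 21 tested higher and 6 lower. The acyl-CoA thioesterases Acot2, which is mitochondrial, and Acot1, which is cytosolic, rose to 26 and 1.86 TPM from 12 and 0.59 TPM. Fabp2, the fatty acid binding protein of enterocytes, rose from 14.3 to 28.2 TPM, and Slc27a1, a fatty acid transporter, from 1.86 to 3.46 TPM. The scavenger receptor Cd36 fell, from 8.55, 7.67, 7.5 and 8.22 TPM to 3.53, 3.70, 4.64 and 3.59 TPM. Of 22 tested genes of triglyceride and phospholipid assembly, 8 rose and 4 fell. The phosphatidate phosphatases Lpin2 and Lpin3 rose by 1.04 ± 0.11 and 0.90 on the log2 scale, and Lpcat3, which puts polyunsaturated chains into phospholipids, by 0.50.

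Apoa4, an apolipoprotein of triglyceride-rich particles, was at 1049, 1060, 1059 and 1123 TPM with vehicle and at 4520, 3915, 3558 and 4040 TPM with palmitic acid. The log2 change was 1.90 ± 0.06 with no overlap, and in mean TPM only Fth1 gained more. The rest of the 18 tested lipoprotein genes mostly went down or did not pass, with 3 higher and 8 lower. Apoa1, the main protein of high-density lipoprotein, fell from 15719 ± 409 to 11673 ± 1151 TPM, and Abca1, the cholesterol exporter that lipidates it, from 9.62 to 5.49 TPM.

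Genes that make fatty acids and sterols fell. Of 20 tested genes of fatty acid synthesis and desaturation, 12 fell and 1 rose, the elongase Elovl7 at 0.39, with a median log2 change of -0.23. Fasn, fatty acid synthase, was at 93.2, 99.7, 93.5 and 93.9 TPM with vehicle and at 66.5, 55.7, 57.8 and 54.4 TPM with palmitic acid, with no overlap between the groups. Scd2, a stearoyl-CoA desaturase, fell from 6.96 to 1.35 TPM, Acss2, which makes acetyl-CoA from acetate, from 40.3 to 16 TPM, and Acaca, acetyl-CoA carboxylase, from 14.6 to 8.56 TPM. The delta-6 desaturase Fads2 fell by 0.53 on the log2 scale.

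Cholesterol synthesis was lower nearly throughout, with 20 of 27 tested genes down, 1 up and a median log2 change of -0.42. The member that rose was Scap, the sterol-sensing escort of SREBP, at 0.24, and it did not pass without palmitic acid sample 2, 3 or 4 or vehicle sample 2, 3 or 4 (adjusted p from 0.0728 to 0.136, limma) nor after median-ratio scaling (0.12) or quantile normalization (0.0975). The summed level of the list went from 2887 ± 109 to 2058 ± 52 TPM. Fdps, which makes farnesyl diphosphate, was at 655, 680, 670 and 679 TPM with vehicle and at 419, 337, 369 and 350 TPM with palmitic acid (log2 change -0.87 ± 0.05). Acat2, Nsdhl, Ebp and Lss, other enzymes of the list, fell by 0.70, 0.67, 0.63 and 0.61 on the log2 scale. The sterol element TCACCCCAC was searched on both strands of RefSeq promoter windows, which span 250 bases before to 50 after each gene's start site (assembly GRCm38.p6). It was found in 1 of 20 genes of the list with a window (5%), Hmgcs1, and in 0.765% of the 8887 tested genes with one. Hmgcs1, an early enzyme of the pathway, fell from 252 to 187 TPM.

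Chaperones and folding enzymes of the ER rose as a group, with 14 of 21 tested members higher, 1 lower (Cnpy2, at -0.35) and a median log2 change of 0.31 against 0.10 for all genes. Their promoters are shown because some of these genes hold the ER stress element, CCAAT, then 9 bases, then CCACG, which the unfolded protein response uses. It was found on either strand in 7 of the 17 members with a RefSeq window (41.2%) and in 0.203% of all tested genes with one. Among the 2134 genes with a window that rose it was in 11 (0.515%), and among the 1028 that fell in 0.195%. The 11 include Calr, Canx, Creld2, Hsp90b1, Hspa5 and Pdia6 of this list, so their share is not independent of that of the list. The stretches below run 5′ to 3′ on the gene's strand, end before the start site, and have the element in capitals; where it lies on the opposite strand, the capitals begin with CGTGG.
Hspa5 (chr2:34772005-34772063, plus strand): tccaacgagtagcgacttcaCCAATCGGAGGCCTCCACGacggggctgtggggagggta
Creld2 (chr15:88819500-88819558, plus strand): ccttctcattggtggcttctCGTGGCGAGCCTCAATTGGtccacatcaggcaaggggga
Hsp90b1 (chr10:86705513-86705676, minus strand): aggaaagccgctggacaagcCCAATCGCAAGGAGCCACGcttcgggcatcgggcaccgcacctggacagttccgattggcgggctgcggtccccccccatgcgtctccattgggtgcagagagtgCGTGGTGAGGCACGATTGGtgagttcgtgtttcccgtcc
Pdia6 (chr12:17266471-17266529, plus strand): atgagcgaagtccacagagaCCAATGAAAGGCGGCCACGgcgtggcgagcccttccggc
Dnajc3 (chr14:118937807-118937865, plus strand): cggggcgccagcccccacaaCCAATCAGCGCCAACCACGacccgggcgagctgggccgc

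Hspa5, the ER chaperone BiP that senses unfolded protein, was at 247, 244, 243 and 238 TPM with vehicle and at 457, 465, 427 and 470 TPM with palmitic acid. The groups were well apart, and the log2 change was 0.90 ± 0.04 (adjusted p = 1.89e-10, limma). Creld2, a secreted ER stress protein, had the largest rise of the list, from 22.2, 20.5, 20.2 and 19.4 TPM to 50.8, 47.6, 42.9 and 52.2 TPM. Hsp90b1, the ER form of HSP90, whose window holds the element at 2 places, rose by 0.93 ± 0.05 on the log2 scale. Pdia4 and Pdia6, which form disulfide bonds, rose by 0.99 and 0.52, and Manf, a chaperone cofactor, by 0.90. The element did not go with a rise in every case. Canx and Calr, the lectin chaperones, also hold it and rose by 0.31 and 0.11, and Calr did not pass after median-ratio scaling (log2 change 0.0073) nor without vehicle sample 3 (0.10, adjusted p = 0.0594, limma) or vehicle sample 4 (0.11, adjusted p = 0.0506, limma). Dnajc3, which also holds it and helps shut down PERK signalling, was at 36.9 ± 1.7 and 38.6 ± 1.1 TPM and did not pass.

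Of 21 tested genes of ER-associated degradation and ER export, 12 rose and 1 fell, with a median of 0.26. Sec24d, a coat protein of ER exit vesicles, and Ssr3, a translocon subunit, rose by 0.68 and 0.65 on the log2 scale. Outside the list, Kdelr3, which returns chaperones from the Golgi to the ER, rose from 2.55, 1.48, 2.42 and 2.50 TPM to 11.2, 11, 13.8 and 11.1 TPM. Herpud1, a degradation adaptor that is raised by ER stress, was the member that fell, from 124 to 91.7 TPM.

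**Figure D2:**
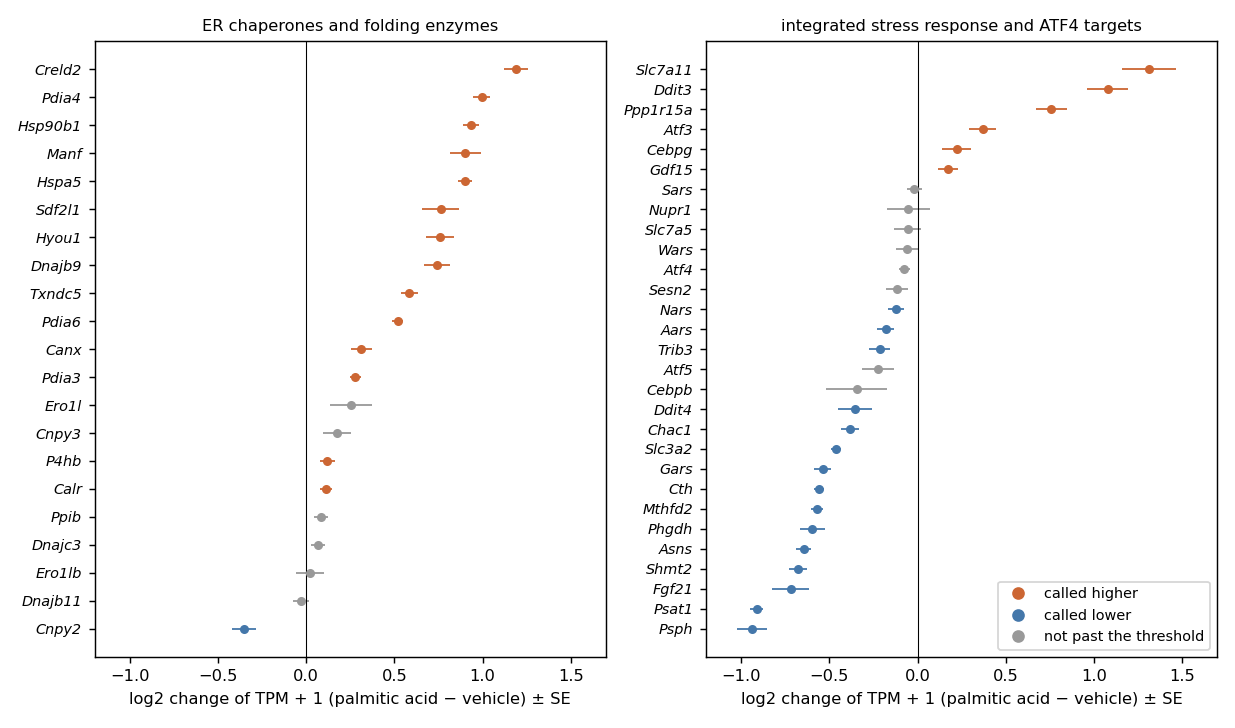
Log2 change of TPM + 1 (palmitic acid minus vehicle, ± SE) of each tested member of the ER chaperone list and of the integrated stress response list in FLOX cells, coloured by call. Creld2 stands highest among chaperones at 1.19, and the stress response list runs from Slc7a11 at 1.31 to Psph at -0.94.

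The integrated stress response, in which PERK and related kinases raise ATF4 and its targets, was split. Of 29 tested genes 6 rose and 15 fell, with a median log2 change of -0.22. The members that rose included the stress transcription factor Ddit3 (CHOP), from 12.5, 14, 11.8 and 10.6 TPM to 27.2, 26, 26.6 and 27.4 TPM. Ppp1r15a, the phosphatase subunit GADD34 that ends the response, rose from 32.5 to 55.6 TPM. Slc7a11, the cystine transporter, rose from 14, 8.76, 9.06 and 9.93 TPM to 19.6, 29.7, 32 and 28.2 TPM, with both samples numbered 1 nearest to each other. The members that fell most make serine: Psph, the phosphatase of the last step, went from 63.9 ± 5.6 to 32.8 ± 2.5 TPM. Psat1, the transaminase before it, was at 150.3, 142, 145 and 146 TPM with vehicle and 82.1, 76, 76.2 and 74.1 TPM with palmitic acid. Shmt2 and Asns, which make glycine and asparagine, fell by 0.68 and 0.65 on the log2 scale, and the hepatokine Fgf21 from 22.4 to 13.2 TPM. Atf4 itself was at 232 ± 5.3 and 220 ± 7.2 TPM and did not pass (adjusted p = 0.0747, limma), but it was called lower without palmitic acid sample 2 (adjusted p = 0.0327, limma) and under both other scalings.

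Promoters of this list are shown because genes with the same ATF4 site moved in opposite directions. The site searched, TGATGCAA on either strand, was in 6 of the 25 members with a window (24%) and in 0.799% of all tested genes with one. It was in 0.515% of the genes with a window that rose and in 2.33% of those that fell. The list was chosen to hold ATF4 targets, so its larger share can come from that choice. List members are also among the genes that rose or fell, so these shares are not independent of that of the list. Of the 6 members, Slc7a11 and Atf3 rose, Fgf21, Chac1 and Aars fell, and Nupr1 did not pass. The fall of Aars did not pass without both samples numbered 1 (adjusted p = 0.0503, limma). Capitals mark the site, which reads TTGCATCA on the opposite strand.
Slc7a11 (chr3:50443633-50443699, minus strand): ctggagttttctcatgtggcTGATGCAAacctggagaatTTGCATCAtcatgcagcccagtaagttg
Atf3 (chr1:191183416-191183463, minus strand): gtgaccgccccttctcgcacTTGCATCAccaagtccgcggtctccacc
Fgf21 (chr7:45615602-45615649, minus strand): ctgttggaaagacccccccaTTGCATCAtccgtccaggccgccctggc
Chac1 (chr2:119351029-119351076, plus strand): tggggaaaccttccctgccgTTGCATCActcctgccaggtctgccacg
Atf3, a stress transcription factor, went from 34.3 to 44.4 TPM, and Chac1, a glutathione-degrading enzyme, from 40.3 to 30.7 TPM. The Slc7a11 window holds the site at 2 places, and its log2 change of 1.31 ± 0.15 was the largest of the list.

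Among cytosolic heat shock chaperones 10 of 18 tested rose and 2 fell, with a median of 0.20. Hspa1a and Hspa1b, the stress-induced HSP70 genes, rose from 1.92 to 6.35 and from 7.87 to 19 TPM. They are near-identical copies between which reads can be split, so the value of each is uncertain. Cryab, a small heat shock protein, rose from 35.2 to 66.1 TPM, and Hspa4, an HSP70 exchange factor, from 100.1 to 149 TPM. Proteasome subunits had 15 of 31 members higher and 0 lower at a median of 0.11, which is close to the median of all genes, and 4 rose after median-ratio scaling. Cytosolic ribosomal proteins had 18 of 40 higher and 0 lower at a median of 0.11. After median-ratio scaling 0 of them passed. Between 8 and 11 passed when vehicle sample 1 or 4 or palmitic acid sample 1 or 4 was left out. The number of calls in these 2 groups thus depended on the scaling, and for ribosomal proteins also on single samples. Both medians lie close to that of all genes, so a rise of either group as a whole rests on the scaling.

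Genes of the contractile actin cytoskeleton, whose transcription depends on serum response factor (SRF) and its actin-sensing partner MRTF, were among the 15 largest falls. Tagln, the actin-bundling protein transgelin, was at 53.2, 56.4, 54.2 and 62 TPM with vehicle and at 3.03, 1.71, 2.81 and 2.36 TPM with palmitic acid. The log2 change of -4.06 ± 0.15 was the largest fall of all tested genes (adjusted p = 4.43e-11, limma). Vil1, villin of the microvilli at the canalicular face, fell from 15.5, 16.9, 16 and 19 TPM to 3.86, 2.59, 2.84 and 3.27 TPM. Cnn2, calponin, fell from 10.5 ± 0.8 to 2.25 ± 0.42 TPM. Tpm2, a tropomyosin, fell from 92.9 to 29.7 TPM, with palmitic acid sample 1 at 42.1 TPM and the other treated samples at 23.5 to 28.1 TPM. Crip1, a LIM-domain protein, fell from 13.5 to 2.45 TPM.

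Across the actin and SRF list 15 of 27 tested genes fell and 5 rose, with a median log2 change of -0.17. The rises numbered 8 without palmitic acid sample 1 and 9 without both samples numbered 1. Abundant Actb, cytoplasmic beta-actin, fell from 4733 ± 173 to 3751 ± 84 TPM, and Srf itself from 19.5 to 15.1 TPM (adjusted p = 0.0263, limma). The call of Srf was lost without palmitic acid sample 2, palmitic acid sample 4, vehicle sample 2 or vehicle sample 4, with adjusted p-values from 0.0534 to 0.0842 (limma), and with no filter (0.0642). Tubb6, a tubulin, led the rises, from 169 to 241 TPM.

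A search added after the data were seen looked for the CArG box, the binding site of SRF, as CC, 6 bases that are each A or T, and GG. It was in 6 of the 23 list members with a window (26.1%) and in 1.77% of all tested genes with one, in 1.69% of those that rose and in 3.31% of those that fell. The list was chosen to hold SRF targets, so its larger share can come from that choice. The genes that fell include Actg1, Cnn2, Myl9, Srf and Vil1 of the list, so their share is not independent of that of the list. The windows of the strong fallers Vil1 and Cnn2 and of Srf are shown beside that of Vcl (vinculin, a focal adhesion protein), which holds a box and did not fall. Capitals mark the box.
Cnn2 (chr10:79988524-79988573, plus strand): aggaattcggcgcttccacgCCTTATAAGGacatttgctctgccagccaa
Vil1 (chr1:74409291-74409340, plus strand): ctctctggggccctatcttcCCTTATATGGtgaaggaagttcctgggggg
Srf (chr17:46556195-46556264, minus strand): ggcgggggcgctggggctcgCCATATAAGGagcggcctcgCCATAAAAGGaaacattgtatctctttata
Vcl (chr14:20929151-20929200, plus strand): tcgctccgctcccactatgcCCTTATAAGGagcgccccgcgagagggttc
Cnn2 and Vcl carry the same 10 letters. Cnn2 fell by 1.83 on the log2 scale, while Vcl was at 44.1, 33.1, 31.2 and 37.4 TPM with vehicle and at 29.7, 47.4, 43.6 and 45.5 TPM with palmitic acid, groups that overlap. The samples numbered 1 were the highest of the vehicle group and the lowest of the palmitic acid group, and without palmitic acid sample 1 Vcl was called higher (log2 change 0.33, adjusted p = 0.0181, limma). The other 2 members with a box are Actg1 and Myl9, which fell, Myl9 from under 1 TPM and not past the threshold without palmitic acid sample 4 or vehicle sample 4 (adjusted p = 0.0582 and 0.085, limma).

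Keratins and genes of dedifferentiation moved both ways, with 9 of 23 tested higher and 8 lower. The chromatin proteins Hmga2 and Hmga1, which mark immature cells, rose, Hmga2 from 1.87 to 12.4 TPM and Hmga1 from 511 to 1116 TPM. Krt20 rose from 30.4 to 65.1 TPM, while the biliary keratins Krt7 and Krt19 fell from 2.31 to 0.278 TPM and from 8.64 to 5.03 TPM, and the calcium-binding S100a6 from 997 to 526 TPM. Of 18 tested genes of matrix and integrins, 9 fell and 4 rose, and 5 fell without both samples numbered 1. Lama5, a basement membrane laminin, fell from 4.50 to 1.11 TPM and the matrix glycoprotein Thbs1 from 19.7 to 8.54 TPM. The integrin chains Itga3 and Itgav rose by 1.00 and 0.96 on the log2 scale.

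**Figure D3:**
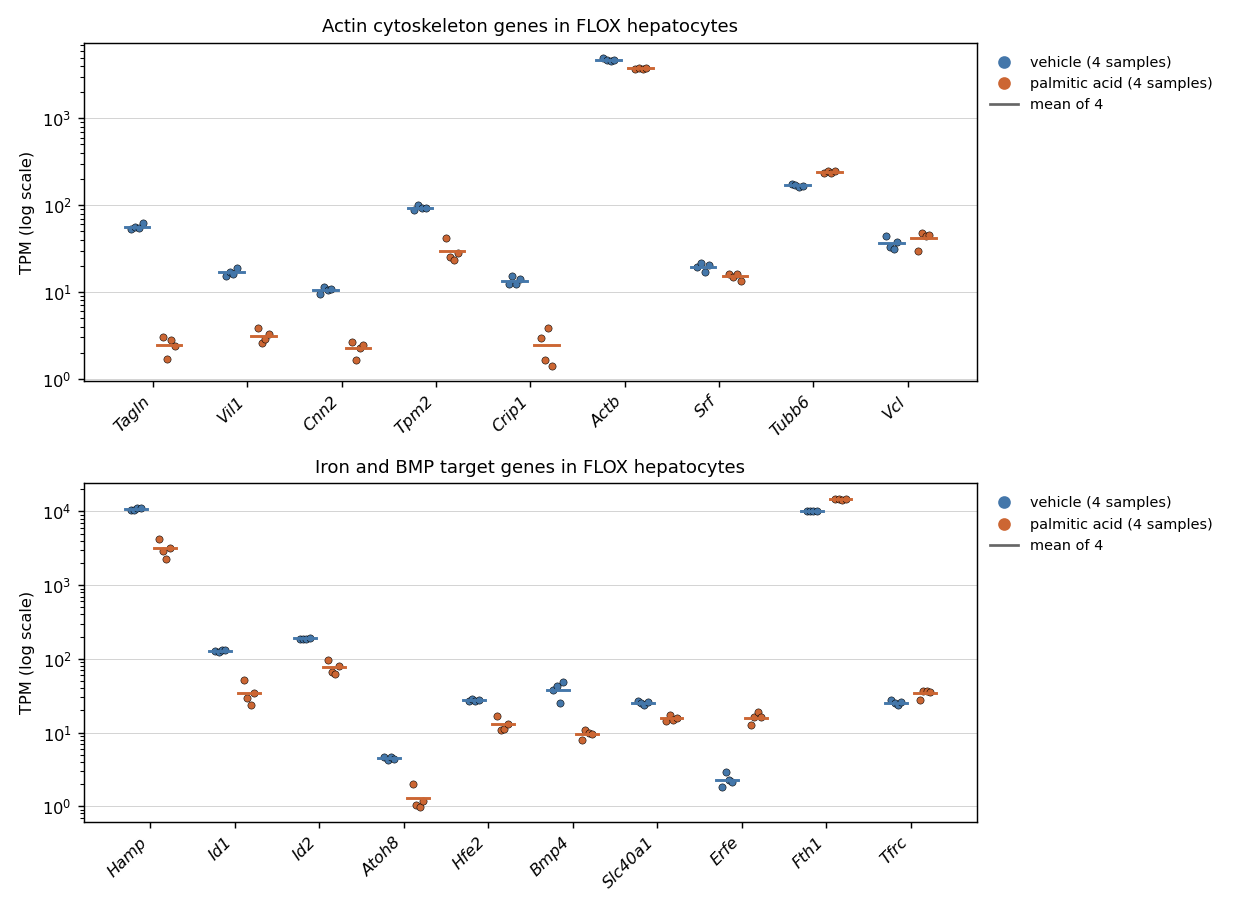
Transcript level (TPM, log axis) of 9 actin cytoskeleton genes and 10 iron and bone morphogenetic protein genes in each FLOX sample, with lines at the means of 4. Tagln goes from a mean of 56.5 to 2.48 TPM, Hamp from 10780 to 3177 TPM, and among the genes shown the groups overlap for Vcl alone.

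Hamp encodes hepcidin, the liver hormone that blocks iron export from cells, and bone morphogenetic proteins (BMP) acting through SMAD factors sustain it in hepatocytes. It was at 10426, 10389, 11210 and 11094 TPM with vehicle and at 4284, 2905, 2281 and 3237 TPM with palmitic acid, the largest loss of mean TPM of any called gene. The log2 change was -1.80 ± 0.16, with palmitic acid sample 1 the least changed (adjusted p = 4.1e-07, limma). Id1, a direct BMP target, fell alongside, from 129, 124, 134 and 132 TPM to 51.4, 29, 23.8 and 34.9 TPM. Id2 and Atoh8, other BMP targets chosen after their values were seen, fell from 189 ± 2.9 to 76.6 ± 15.4 TPM and from 4.53 ± 0.21 to 1.31 ± 0.48 TPM. Palmitic acid sample 1 was the least changed for these 3 genes too.

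Hfe2, the BMP co-receptor hemojuvelin, fell from 27, 28.5, 27.1 and 27.7 TPM to 16.6, 10.9, 11.2 and 13.1 TPM, and the ligand Bmp4 from 37.7, 42.2, 25.2 and 48.3 TPM to 7.93, 10.8, 9.97 and 9.47 TPM. Erfe, erythroferrone, a secreted BMP trap known from red cell precursors, rose from 1.85, 2.89, 2.29 and 2.13 TPM to 12.5, 16.2, 18.8 and 16 TPM (log2 change 2.36 ± 0.12). In the iron and heme list as a whole 5 of 27 tested rose and 9 fell, and 14 fell after median-ratio scaling. Of all genes 23.0% rose and 11.5% fell. Fth1, the ferritin heavy chain, gained more mean TPM than any other called gene, from 10082 ± 91 to 14618 ± 189 TPM. The iron exporter Slc40a1 fell from 25.5 to 15.6 TPM, and transferrin, Trf, from 13070 ± 461 to 9604 ± 256 TPM. Tfrc, the transferrin receptor, rose from 25.4 to 34.1 TPM, although palmitic acid sample 1, at 27.8 TPM, lay close to the highest vehicle sample at 27.4 TPM.

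Genes of the differentiated hepatocyte were lower across most functions. Of 30 tested plasma proteins 24 fell and 1 rose (4 rose without both samples numbered 1), with a median log2 change of -0.21 and a sum that went from 65663 ± 828 to 54499.5 ± 929.7 TPM. Alb, albumin, was at 21980, 21875, 22002 and 22511 TPM with vehicle and at 17752, 19048, 18670 and 19600 TPM with palmitic acid, a small but separate fall of 0.24 ± 0.03 on the log2 scale. Ahsg (fetuin-A) and Gc, the vitamin D carrier, fell by 0.55 and 0.53. The member that rose was Apcs, the pentraxin serum amyloid P, by 0.72 on the log2 scale. Among 24 tested acute phase genes 8 fell and 4 rose, and 1 rose after median-ratio scaling. In the complement list 15 of 21 tested fell and 1 rose, Clu (clusterin, a secreted chaperone and complement inhibitor), from 2127 ± 56 to 3105 ± 154 TPM, while Mbl2, the lectin that starts one of its pathways, fell from 121 to 74.3 TPM.

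**Figure D4:**
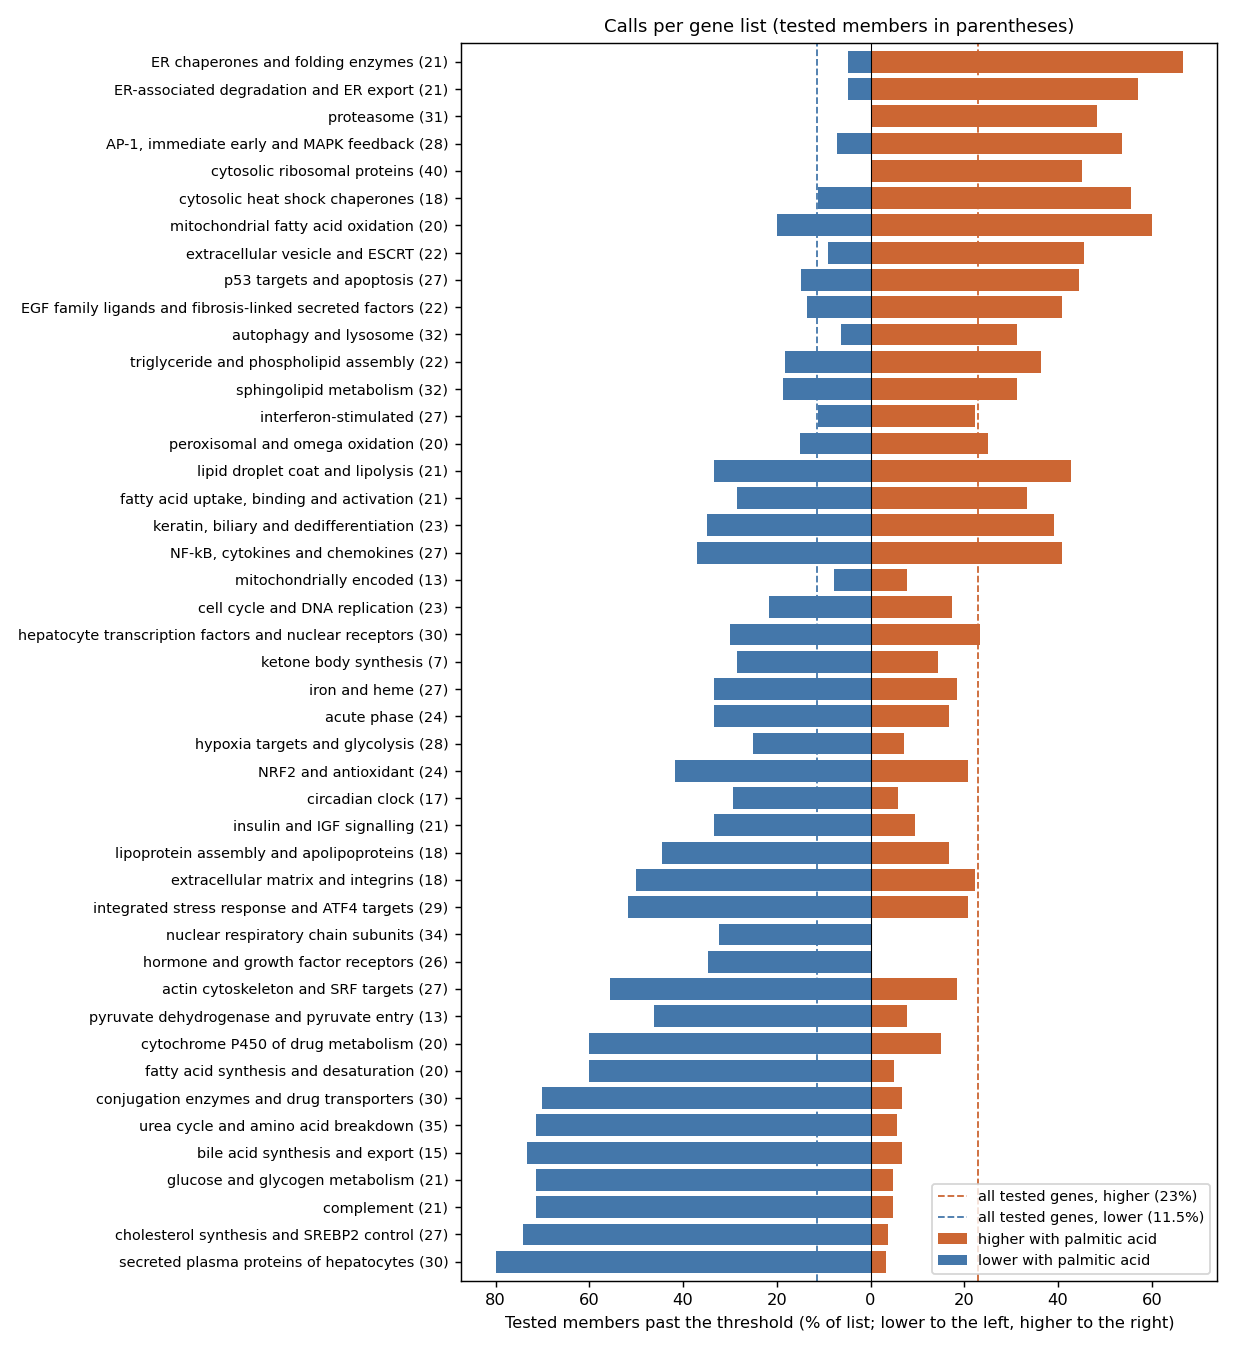
Share of tested members called higher (right) and lower (left) with palmitic acid in FLOX cells for each gene list other than the cell type markers, with dashed lines at the shares for all tested genes, 23.0% and 11.5%. Secreted plasma proteins and cholesterol synthesis have the largest shares of lower members, and ER chaperones the largest share of higher members.

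Genes of drug and bile acid metabolism fell. Of 20 tested cytochrome P450 genes 12 fell and 3 rose, with a median of -0.23. Cyp2b10, the classic target of the receptor CAR, was at 67.6, 67.8, 68.9 and 72.6 TPM with vehicle and at 31.9, 29, 24.5 and 31.4 TPM with palmitic acid. Cyp2c70, the mouse enzyme that makes muricholic acid, fell from 911 ± 10 to 430.4 ± 11.4 TPM, while Por, the reductase that feeds electrons to these enzymes, rose from 113 to 176 TPM. Cyp2e1 did not pass, at 155 ± 2.4 and 159 ± 13.3 TPM. Of 30 tested conjugation enzymes and transporters 21 fell and 2 rose, with Sult1a1, a phenol sulfotransferase, from 351 to 163 TPM and the glucuronosyltransferase Ugt2b36 from 97.6 to 50.2 TPM. Of 15 tested bile acid genes 11 fell and 1 rose, Hsd3b7 of the synthesis pathway at 0.29, with a median of -0.43. Baat, which joins bile acids to taurine or glycine, was at 30.5, 30.4, 29.8 and 31.6 TPM with vehicle and at 13.7, 13.6, 14.8 and 12.7 TPM with palmitic acid. The exporter chain Slc51b and the phospholipid pump Abcb4 fell by 1.05 and 0.84 on the log2 scale.

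Glucose handling showed the same direction, with 15 of 21 tested genes lower, 1 higher and a median of -0.34. Slc2a2, the hepatocyte glucose transporter GLUT2, was at 97.6, 96.3, 101 and 94.1 TPM with vehicle and at 30.6, 28.5, 22.1 and 30.5 TPM with palmitic acid, a log2 change of -1.77 ± 0.10. Gys2, liver glycogen synthase, fell from 12.3 to 5.09 TPM. Slc37a4, the transporter of glucose phosphate into the ER, fell from 45.9 to 22.9 TPM. The member that rose was Slc2a1, the transporter GLUT1, at 0.25 on the log2 scale, and it too did not pass without palmitic acid sample 2, 3 or 4 or vehicle sample 2, 3 or 4 (adjusted p from 0.0786 to 0.118, limma) nor after median-ratio scaling (0.17) or quantile normalization (0.134). Of 35 tested genes of the urea cycle and amino acid breakdown 25 fell and 2 rose, with a median of -0.32. Cps1, the first enzyme of the urea cycle, fell from 34.2 to 20.9 TPM and Cbs, of transsulfuration, from 53.7 to 29.8 TPM. Glul, glutamine synthetase, a pericentral enzyme, went the other way, from 25.7, 23.6, 21.4 and 25 TPM to 41.4, 51.7, 51.2 and 51.4 TPM.

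Of 26 tested hormone and growth factor receptors 9 fell and 0 rose in limma, and 6 rose without both samples numbered 1. Adra1b, the main alpha-1 adrenergic receptor of hepatocytes, had by far the largest fall of the list, from 22.5, 19.3, 22.1 and 22.4 TPM to 5.14, 3.94, 2.46 and 4.09 TPM. Insr, the insulin receptor, did not pass, at 9.02 ± 1.7 and 10.1 ± 2.3 TPM. In the insulin and IGF list 7 of 21 tested fell and 2 rose, and 13 fell after median-ratio scaling. Igfbp3, an IGF carrier, rose from 47.3 to 117 TPM, Txnip, an inhibitor of glucose uptake, from 5.82 to 11.2 TPM, and Inhba, the activin A chain, fell from 9.85 to 3.87 TPM. Hepatocyte transcription factors were mixed, with 7 of 30 tested higher and 9 lower, against 23.0% and 11.5% of all genes. Their share of rises was thus close to that of all genes. Hnf4a and Cebpa, which maintain hepatocyte identity, did not pass at log2 changes of -0.14 and -0.17, but both were called lower after median-ratio scaling (-0.25 and -0.27) and after quantile normalization (-0.18 and -0.27). Klf15, of the fasting response, fell by 0.85 and Pparg, the adipocyte regulator, by 0.57.

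Immediate early and MAPK feedback genes rose in 15 of 28 tested cases and fell in 2, with a median of 0.19. Dusp5, a nuclear ERK phosphatase, was at 27.5, 25.3, 26.3 and 26.3 TPM with vehicle and at 54.7, 66.7, 63.4 and 57.6 TPM with palmitic acid, and Fosl1, an AP-1 subunit, rose from 22.3 to 43.3 TPM. Fos itself fell from 16.1 to 8.04 TPM. Among growth factors, Lif rose from 6.58 to 14.2 TPM, and the EGF receptor ligands Btc and Areg by 0.81 and 0.55 on the log2 scale. That list had 9 of 22 higher and 3 lower, with 5 higher after median-ratio scaling and 5 without vehicle sample 2. The NF-kB and cytokine list was split at 11 of 27 higher and 10 lower, with 7 higher after median-ratio scaling. Cd14, the lipopolysaccharide co-receptor, was at 34.4, 36.2, 37.4 and 37.5 TPM with vehicle and at 103, 104, 98.4 and 95.6 TPM with palmitic acid. The monocyte attractant Ccl2 and the macrophage growth factor Csf1 fell, from 310 ± 9.7 to 155 ± 19 TPM and from 58.7 ± 4.5 to 19.2 ± 0.7 TPM. Interferon-stimulated genes had 6 of 27 higher and 3 lower, a share of rises close to that of all genes. That count became 10 without palmitic acid sample 1 and 15 without both samples numbered 1.

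Antioxidant genes were split, with 5 of 24 tested higher and 10 lower, against 23.0% and 11.5% of all genes. Srxn1 (sulfiredoxin) and Gsr, glutathione reductase, rose by 0.97 and 0.59 on the log2 scale, while the glutathione transferases Gstm2 and Gstm3 fell by 0.80 and 0.59. The p53 and apoptosis list had 12 of 27 higher and 4 lower, 9 and 7 after median-ratio scaling, led by Phlda3, a repressor of AKT, at 0.64, and Gadd45g, a growth arrest gene, fell by 0.92. Of 32 tested autophagy and lysosome genes 10 rose and 2 fell, against 23.0% and 11.5% of all genes. Their median log2 change of 0.04 was below the 0.10 of all genes. The cholesterol exporter of the lysosome, Npc1, rose from 20.9 to 31.2 TPM and the autophagy receptor Sqstm1 from 748 to 1079 TPM. Of 22 genes of extracellular vesicles 10 rose and 2 fell, led by Rab31 at 0.92.

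Sphingolipid genes had 10 of 32 tested higher and 6 lower, and 6 and 10 after median-ratio scaling, and 6 rose without palmitic acid sample 2. Sphk1, which makes sphingosine 1-phosphate, was at 8.11, 9.94, 9.51 and 8.65 TPM with vehicle and at 16.9, 25.7, 25.8 and 19.8 TPM with palmitic acid. Spns2, the exporter of sphingosine 1-phosphate, fell from 11.4 ± 1.1 to 2.38 ± 0.31 TPM, and Sgpl1, the lyase that degrades it, rose from 19.8 to 30.9 TPM. Smpd3, intact in these cells, was at 37.1, 29.7, 27.8 and 33.2 TPM with vehicle and at 42.5, 47.1, 46.7 and 47.8 TPM with palmitic acid, a rise of 0.52 ± 0.11 on the log2 scale without overlap. In HKO cells it was at 5.29 ± 0.71 and 7.82 ± 1.11 TPM.

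Ccnd1, the G1 cyclin, fell from 4.04 to 1.67 TPM. The cell cycle and replication list had 4 of 23 higher and 5 lower, against 23.0% and 11.5% of all genes. After median-ratio scaling 0 were higher, without vehicle sample 2 only 1 was, and 2 were without vehicle sample 3 or without palmitic acid sample 2, 3 or 4. Clock genes had 1 of 17 higher and 5 lower, with Nr1d1, a repressor of the clock, at 0.61 on the log2 scale. There, 4 were higher without palmitic acid sample 1, 5 without both samples numbered 1, and 3 were lower without palmitic acid sample 3 or vehicle sample 1. The hypoxia and glycolysis list had 2 of 28 higher and 7 lower, with 4 higher without vehicle sample 1 and 13 lower after median-ratio scaling. Of 13 mitochondrially encoded genes 1 rose, mt-Co2, a subunit of cytochrome oxidase, from 362 to 682 TPM, and 1 fell, mt-Co1, which encodes another, with 4 lower after median-ratio scaling. The fall of mt-Co1, from 33465 to 30745 TPM, did not pass without vehicle sample 1, 2, 3 or 4 (adjusted p from 0.0522 to 0.0689, limma). Of 34 nuclear subunits of the respiratory chain 11 fell and 0 rose, at a median of -0.07. The falls numbered 6 or 7 without palmitic acid sample 2, 3 or 4 or without vehicle sample 1 or 4.

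Several of the largest changes were outside the lists, in which 3475 of the called genes do not appear. Tnfrsf22 and Tnfrsf23, decoy receptors for TRAIL, went up, Tnfrsf22 from 4.96 to 22.6 TPM and Tnfrsf23 from 10.7 to 43.6 TPM, with vehicle sample 2 high for Tnfrsf22 at 8.75 TPM. Sult1e1, the estrogen sulfotransferase, rose from 5.32, 5.16, 5.73 and 4.96 TPM to 19.4, 21.5, 21.4 and 20.5 TPM. Among the falls, Bex3 went from 28.8, 33.6, 30.6 and 34.1 TPM to 3.37, 3.27, 3.55 and 2.58 TPM. Psca, a membrane-anchored surface protein, fell from 22.1 ± 0.3 to 2.74 ± 0.40 TPM, S100a4 from 55.3 to 13.1 TPM, and Akr1c14, a hydroxysteroid dehydrogenase, from 44.2 to 11 TPM.

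A total of 45 genes went from under 1 TPM in all 4 vehicle samples to at least 1 TPM in all 4 palmitic acid samples, and 30 went the other way. The highest of the first set was Gm25767, listed at 0 in every vehicle sample and at 6.73, 51.7, 14.8 and 16.2 TPM with palmitic acid, a spread so wide that its level is poorly known. In HKO cells Gm25767 ranged from 0 to 31.7 TPM with vehicle and from 0 to 26 TPM with palmitic acid. Its values thus reached that far without palmitic acid too, and its change in HKO did not pass. Ivl, involucrin, an envelope protein of skin cells, was next in the first set, from 0.598 to 6.96 TPM. Rrad, a small GTPase, Dppa3 and Cck, the hormone cholecystokinin, reached 3.72, 3.68 and 3.41 TPM. Of those that dropped below 1 TPM, Ankrd2, Guca2b, Nexn, Gm14435 and Myl7 had the highest vehicle means, from 4.21 to 2.32 TPM. Ankrd2, Nexn and Myl7 are best known from muscle.

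The response was compared with that of cells without Smpd3 by the interaction, in which the FLOX log2 change is subtracted from the HKO one. It passed for 23 genes, or 0.194% of those tested, 18 with a higher and 5 with a lower value in HKO. Hspa1a, Hspa1b and Creld2 had the highest values of the first group. Hspa1a rose in FLOX from 2.48, 1.49, 1.53 and 2.18 TPM to 6.70, 7, 4.01 and 7.70 TPM, and in HKO from 2.09 ± 0.50 to 29.9 ± 6.6 TPM. The difference of the log2 changes was 1.99 ± 0.27 (adjusted p = 0.0115, limma), with the split of reads with Hspa1b, at 1.65 ± 0.21, as above. Creld2, Hsp90b1, Hspa5 and Pdia4 rose in FLOX by 1.19, 0.93, 0.90 and 0.99 and in HKO by 1.85, 1.36, 1.26 and 1.35.

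Other genes differed through a fall seen in FLOX. Hmox1, heme oxygenase, and Igfbp1, an IGF carrier, fell in FLOX from 403 to 297 TPM and from 324 to 258 TPM and were at 372 and 372 TPM and at 485 and 486 TPM in HKO. Cyp2a5, a coumarin hydroxylase, fell in FLOX from 93.2, 95.3, 98.1 and 87.9 TPM to 51.8, 56.8, 58.4 and 51.7 TPM, and in HKO from 23.9 ± 1.5 to 20.1 ± 0.7 TPM, so its levels already differed under vehicle. Sult1e1 was the reverse case, with a larger rise in FLOX (1.79 ± 0.07) than in HKO (1.09 ± 0.07). Gckr, a regulatory protein of glucose metabolism, and Col12a1, a collagen, fell less in FLOX than in HKO. Hspa1a, Hspa1b and Cyp2a5 kept the call in all 17 alternatives, Creld2 and Sult1e1 in 16, Hsp90b1 in 15, Hspa5 in 14 and Igfbp1 in 13. The other 15, Pdia4, Hmox1, Gckr and Col12a1 among them, kept it in only 3 to 8. The number of genes passing was 8 to 11 without palmitic acid sample 3 or 4 or without any 1 of the vehicle samples, and 22 and 24 without palmitic acid samples 1 and 2.

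**Figure D5:**
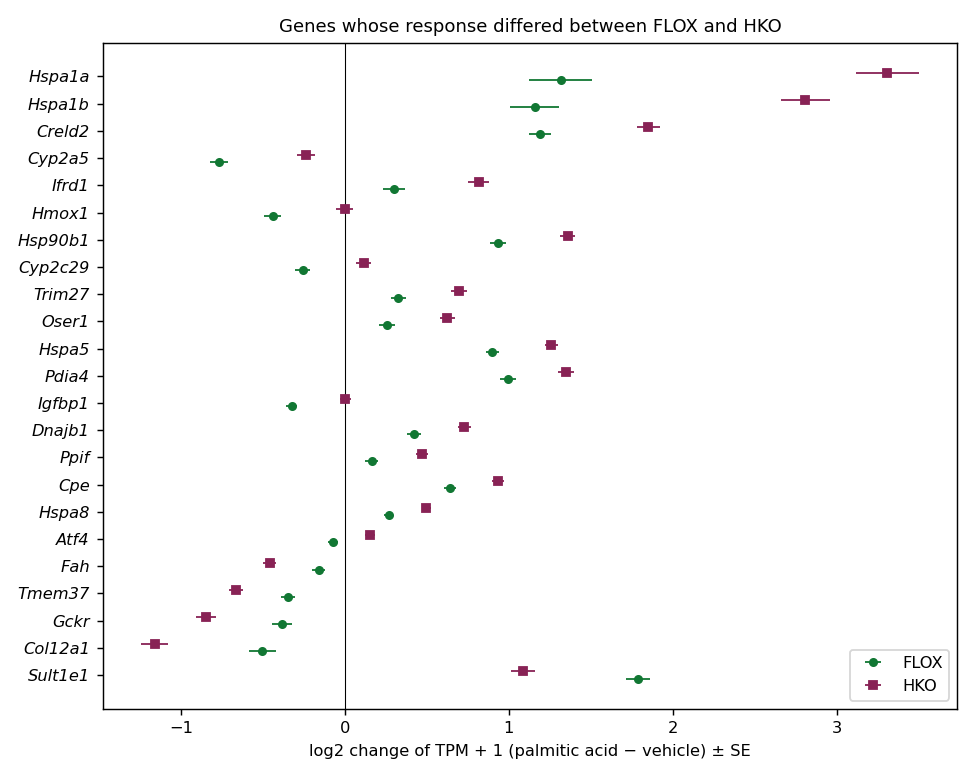
Log2 change of TPM + 1 with palmitic acid (± SE, 4 against 4 samples) in FLOX and in HKO cells for the 23 genes whose response differed. Hspa1a and Hspa1b have the widest gap, with 1.32 and 1.16 in FLOX against 3.31 and 2.81 in HKO, and Sult1e1 is the gene with the larger rise in FLOX.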

How the data were processed

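RNA sequencing of 16 primary mouse hepatocyte samples was deposited as 1 table of TPM values made by the authors, with 2 decimals. The submitters' processing notes list RSEM 1.3.3, and the labels' protocols give a stranded total RNA library kit. The notes also list a human genome build, which cannot be that of the mouse gene IDs. For the aligner and the annotation, nothing was stated in these sources. Read depth cannot be recovered from TPM and is unknown. Columns summed to 975816 to 984870.

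Genes with at least 1 TPM in at least 4 of 16 samples were tested. A linear model with 4 group means was fitted to log2(TPM + 1) over all 16 samples with limma 3.58.1 in R 4.3.3 (empirical Bayes with a variance trend, two-sided), with Benjamini-Hochberg adjustment across the 11858 tested genes. A fold change on this scale understates the change of low genes. The interaction was a contrast of the same fit. The script was tested on simulated data. Promoter windows came from RefSeq (GRCm38.p6), which gave no coordinate to the expression values. Further planned searches covered a heat shock element (GAA, 2 bases, TTC, 2 bases, GAA) and a direct repeat (AGGTCA, 1 base, AGGTCA). Of heat shock chaperones with a window, 4 of 13 (30.8%) held the first, and not all of these rose. It was in 0.563% of all tested genes with a window. The direct repeat was in 0 of 18 mitochondrial and 0 of 11 peroxisomal and omega oxidation genes, and in 0.0563% of all tested.

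The groups, the 52 gene lists and the rule for named genes were chosen with earlier results of these data known, so counts over a list are descriptions. The rule named Smpd3, the 15 genes of largest change in each direction without overlap and up to 5 called members of each list. It also named 5 genes in each direction of largest change in mean TPM and up to 5 in each direction crossing 1 TPM. Of the genes past the interaction threshold, it named up to 5 with the largest FLOX change in each direction of that change. Other genes, among them Angptl4, Hmgcs1, Pdia6, Canx, Calr, Atf3, Chac1, Aars, Fgf21, Shmt2, Asns, Srf, Actb, Actg1, Tubb6, Id2, Atoh8, Tfrc, Por, Cnpy2, Scap, Slc2a1, Elovl7 and Hsd3b7, were named after their values were seen. Alternatives were another pseudocount (0.1), a filter at 5 TPM or none, median-ratio scaling, quantile normalization, no variance trend, sample quality weights, FLOX samples alone, a replicate block and leaving out each FLOX sample. Leaving out both samples numbered 1 and the CArG box were added after the data were seen. Some genes are not reported here.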

Additional observations from a re-analysis of the deposited data

Results flagged for a closer look

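In 26 of 374 groups of 4 FLOX values (6.95%), 1 sample stood apart from the other 3 by Dixon's test, where chance gives about 1 in 20. Palmitic acid sample 1 accounted for 10 of them. It was the lowest of its group for Tfrc (27.81 TPM), Glul (41.4 TPM), Lif (11.61 TPM), Sgpl1 (24.11 TPM), Cd68 (55.12 TPM), Rab31 (52.75 TPM), Rrad (2.84 TPM) and mt-Co1 (2.732e+04 TPM), and the highest for Calr (303 TPM) and Asns (69.49 TPM). Palmitic acid sample 3 was the highest for Eci2 (69.52 TPM), Acot1 (3.24 TPM), Cd36 (4.64 TPM) and Kdelr3 (13.79 TPM). Palmitic acid sample 4 was the highest for Acss2 (17.76 TPM) and the lowest for mt-Co2 (588.1 TPM), and palmitic acid sample 2 the highest for Gm14435 (0.68 TPM). Vehicle sample 1 was the highest for Oxct1 (12.62 TPM), Igfbp3 (51.67 TPM), Klf15 (3.23 TPM) and Hsd3b7 (71.76 TPM). Vehicle sample 2 was the highest for Fasn (99.73 TPM) and Pparg (9.83 TPM) and the lowest for Kdelr3 (1.48 TPM) and Adra1b (19.32 TPM), and vehicle sample 4 the highest for Apoa4 (1123 TPM).

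The response differed between HKO and FLOX cells for 23 genes, given as the HKO minus the FLOX log2 change. Among heat shock and ER chaperones it was 1.99 for Hspa1a, 1.65 for Hspa1b, 0.66 for Creld2, 0.426 for Hsp90b1, 0.361 for Hspa5, 0.356 for Pdia4, 0.308 for Dnajb1 and 0.229 for Hspa8. Among metabolic enzymes it was 0.532 for Cyp2a5, 0.439 for Hmox1, 0.372 for Cyp2c29, -0.299 for Fah and -0.696 for Sult1e1, and for Gckr it was -0.461. For Atf4 it was 0.229, for Igfbp1 0.326, for Ifrd1 0.517, for Trim27 0.371, for Oser1 0.37, for Ppif 0.307 and for Cpe 0.292. For Tmem37 it was -0.315 and for Col12a1 -0.659.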

How the results depend on the processing

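Of 177 genes named as called, 168 kept direction and call in every 1 of the 18 alternatives in which they were tested. Low genes, among them Krt7, Klf15 and Rrad, were not tested with the filter at 5 TPM and so had 17. The others were Calr, Srf, Myl9, Aars, Scap, Slc2a1 and mt-Co1, described above, Cd68, which did not pass after median-ratio scaling (adjusted p = 0.054, limma), and Spp1, whose call was lost in 13 alternatives, with an adjusted p of 0.456 after median-ratio scaling (limma). Of the genes given as not passing, Atf4 and Vcl each passed in 3 alternatives, Hnf4a, Cebpa and Alas2 in 2 and Insr in 1. The number of called genes ranged from 3191 with a replicate block to 5598 with sample quality weights. Genes called higher numbered 1624 after median-ratio scaling. The share of called genes that were higher was 44.8% after median-ratio scaling, 50.4% after quantile normalization, 64.3% with FLOX samples alone, 64.8% with no filter, 72.3% with sample quality weights, 74.6% without both samples numbered 1, and 62.7% to 71.3% when 1 FLOX sample was left out. The interaction passed for 9 genes after median-ratio scaling, 5 with no variance trend, 40 with sample quality weights and 8 to 24 when 1 FLOX sample was left out. In each case the cause was not tested. With the replicate number as a block the share was 63.8% and the interaction passed for 3 genes. The block also ended the calls of Srf (adjusted p = 0.0817), Calr (0.0587), Scap (0.105), Slc2a1 (0.0883), mt-Co1 (0.0828) and Spp1 (0.0778), all from limma. Deviations of same-numbered samples from their group means correlated at -0.15, -0.075, 0.018 and 0.036. No vehicle sample correlated best with the palmitic acid sample of its own number. Of the palmitic acid samples, only sample 4 correlated best with the vehicle sample of its number. These correlations cannot show whether same-numbered samples shared a source, so the pairing is unknown. The main fit treated the samples as unpaired.

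That of mt-Co1 was 0.0000 after quantile normalization, which is not a change of sign. Quantile normalization gives equal ranks equal values, so an estimate of 0.0000 can come from the method alone. Estimates that changed sign were those of genes that did not pass. Ppara was at -0.0634 after median-ratio scaling, -0.0635 after quantile normalization and from -0.0976 to 0.0990 when 1 sample was left out. Dnajc3 was at -0.0351 and -0.0101 and Cyp2e1 at -0.0668 and -0.0113 under the same 2 scalings, and Cyp2e1 ranged from -0.0044 to 0.0797 when 1 sample was left out. Nupr1 ranged from -0.1110 to 0.0334 when 1 sample was left out. With TPM alone, counting error cannot be separated from other spread, which limits genes of a few TPM most.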
